A study of Mus musculus with 8 samples.

Results

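Laminins, nidogens, perlecan and nephronectin are secreted proteins of the basement membrane, and the transcripts of 10 of their genes were followed across the cell types of the adult mouse liver. The genes were taken by name from the 46517 genes counted, and all 10 were found: the laminin alpha chains Lama2, Lama4 and Lama5, the beta chains Lamb1 and Lamb2, the gamma chain Lamc1, the nidogens Nid1 and Nid2, perlecan (Hspg2) and nephronectin (Npnt). The study dissociated livers of healthy adult C57BL6/J and reporter mice of both sexes, sorted single cells into plates and sequenced 3491 of them by Smart-seq2, a plate-based method that amplifies whole polyadenylated transcripts without molecular identifiers. Cells fell into 4 classes, each with a male and a female pool: 998 and 339 mesenchymal cells, 655 and 451 endothelial cells, 255 and 396 immune cells, and 358 and 39 parenchymal cells (labelled epithelial), which comprise hepatocytes and cholangiocytes. Each pool was taken as 1 replicate.

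Mesenchymal cells were captured on GFP driven by Pdgfrb, Pdgfra or Acta2 in heterozygous reporter mice or with an antibody against PDGFRα, endothelial cells on CD31, VE-Cadherin or Cldn5-driven GFP, cholangiocytes on EPCAM and macrophages on CD68, whereas hepatocytes were taken as living cells without selection. The reporters and antibodies therefore decided which cells entered a pool and in what proportion. The labels do not say which mouse a cell came from. Reporter lines are not labelled per cell, though the names of some plates contain Acta2, Rb or EC. Each of the 22 plates held cells of 1 sex, so sex and plate cannot be told apart. A single plate gave all 339 of the female mesenchymal cells.

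Laminins are trimers of an alpha, a beta and a gamma chain that assemble into sheets on cell surfaces, and the alpha chain largely sets which receptors the trimer binds. Nidogens and the proteoglycan perlecan link these sheets to the network of type IV collagen, and nephronectin is a basement membrane ligand of the integrin that carries the Itga8 chain. In the liver, vessels, bile ducts and smooth muscle lie on basement membranes, while the sinusoids are known for the lack of a continuous one.

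On GRCm38 with the GENCODE vM21 annotation, the alpha chain genes lie at chr10:26980036-27619758 (Lama2, minus strand), chr10:38965515-39110188 (Lama4, plus strand) and chr2:180176373-180225859 (Lama5, minus strand). The beta and gamma chain genes lie at chr12:31265234-31329644 (Lamb1, plus strand), chr9:108479736-108490530 (Lamb2, plus strand) and chr1:153218922-153332786 (Lamc1, minus strand). Nid1 lies at chr13:13437551-13512269 and Nid2 at chr14:19751265-19811787, both on the plus strand, Hspg2 at chr4:137468769-137570630 on the plus strand and Npnt at chr3:132881745-132950291 on the minus strand. Reads were counted over the exons of whole genes, and whether the counting used strand is not given in the sources used here.

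The 250 bases before the RefSeq transcription start (GRCm38.p6) are shown for 4 of the genes: Lama2 and Lamb1, whose levels moved together across clusters, and Lama5 and Npnt, whose levels followed other cell types. Each is written 5′ to 3′ on the strand of its gene. Capitals mark the motif GGGCGG on either strand, known as a site of Sp factors, and the CArG box, the motif of serum response factor. The windows are chr10:27616943-27617192 (Lama2, minus strand), chr12:31265043-31265292 (Lamb1, plus strand), chr2:180225860-180226109 (Lama5, minus strand) and chr3:132950292-132950541 (the upstream of 2 starts of Npnt, minus strand). RefSeq and GENCODE place the starts of Lama2 and Lamb1 differently. The Lama2 window lies inside the gene as GENCODE bounds it, and the Lamb1 window runs past the GENCODE start.
Lama2: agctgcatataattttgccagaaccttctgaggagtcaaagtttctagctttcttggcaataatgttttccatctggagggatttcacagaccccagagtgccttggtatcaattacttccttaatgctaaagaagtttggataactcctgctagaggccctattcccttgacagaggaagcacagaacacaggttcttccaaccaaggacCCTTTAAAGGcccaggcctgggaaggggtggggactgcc
Lamb1: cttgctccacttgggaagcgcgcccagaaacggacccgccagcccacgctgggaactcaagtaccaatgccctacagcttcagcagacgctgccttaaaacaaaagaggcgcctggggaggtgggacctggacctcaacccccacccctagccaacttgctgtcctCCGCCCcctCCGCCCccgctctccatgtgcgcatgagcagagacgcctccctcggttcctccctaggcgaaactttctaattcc
Lama5: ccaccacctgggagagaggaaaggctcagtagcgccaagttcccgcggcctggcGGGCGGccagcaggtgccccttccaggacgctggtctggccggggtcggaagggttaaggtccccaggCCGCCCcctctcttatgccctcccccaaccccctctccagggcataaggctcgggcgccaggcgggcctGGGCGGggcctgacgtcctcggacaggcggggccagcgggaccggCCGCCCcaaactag
Npnt: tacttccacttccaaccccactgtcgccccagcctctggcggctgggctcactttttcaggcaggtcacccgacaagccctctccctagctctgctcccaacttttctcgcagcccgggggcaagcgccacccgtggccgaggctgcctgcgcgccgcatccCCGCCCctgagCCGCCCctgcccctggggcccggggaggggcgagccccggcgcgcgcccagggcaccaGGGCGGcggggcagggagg

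The Lama2 window held no GGGCGG and 1 CArG box, and 47.2% of its bases were G or C. The windows of Lamb1, Lama5 and Npnt held 2, 4 and 3 copies of GGGCGG and no CArG box, with a G and C content of 62%, 72.4% and 74%. The window of the other Npnt start held neither motif (69.6% G and C). Among 32851 promoter windows of the same length, 32.7% held GGGCGG and 1.47% a CArG box on either strand, and the median G and C content was 52.4%. A motif match describes the letters only. Of the 10 genes, 7 had a window in the RefSeq table; Lama4, Lamc1 and Nid2 did not.

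The median depth was 228708 counts per cell (47063 to 1128421), and the summed depth of a pool ran from 6.4 M counts for female parenchymal to 218.4 M for male mesenchymal cells. Levels are given as CPM, the counts of a gene scaled to the summed counts of its pool, and as CPM per kilobase of exon where different genes are compared. The endothelial marker list (Pecam1, Cdh5, Tie1, Kdr, Ptprb) summed to 7932 and 7882 CPM in the male and female endothelial pools and to between 42.1 and 553 CPM in the others. Mesenchymal markers summed to 6219 and 6654 CPM in mesenchymal pools and to between 27.8 and 142 CPM elsewhere. The female mesenchymal plate stood apart in its low counts: 62.2% of its 339 cells held 1 to 19 counts of Npnt, against 2.31% of the 998 male mesenchymal cells. Lama4 showed 46.9% against 9.82%, Lama5 59% against 13.0%, Nid2 55.8% against 21.9%, Lamb1 51.0% against 24.7%, Lamc1 44.5% against 22.1% and Lama2 47.8% against 27.5%. Nid1 and Hspg2 went the same way, and Lamb2 did not (19.2% against 27.8%). For that reason shares of cells with 20 or more counts are also given, and levels of about 10 CPM or less in female mesenchymal clusters were not read as expression.

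Mesenchymal cells carried more of 7 of the 10 genes: Lama2, Lamb1, Lamb2, Lamc1, Nid1, Nid2 and Npnt were called higher than in the other classes by edgeR's quasi-likelihood test (adjusted p under 0.05 and at least 1 on the log2 scale), and none lower. Of the 24046 genes tested, 9.47% were called higher and 2.33% lower in this comparison (11.8% in all), and the median log2 difference was 4.02 over the 10 genes against 0.02 over all genes. Lama2, the alpha chain known from muscle and peripheral nerve, stood at 416 (male) and 182 (female) CPM in the mesenchymal pools, and at 1.66 CPM or less in each of the other 6 pools. The log2 difference was 8.41 ± 0.84 (SE, 2 pools per class, adjusted p = 0.000839). Both mesenchymal pools lay far above every other pool.

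Lamb1 reached 314 and 176 CPM in the male and female mesenchymal pools and at most 21.7 CPM in any other, a log2 difference of 5.55 ± 0.82 (adjusted p = 0.00398). Lamb2, the other beta chain, was less confined, with 451 and 759 CPM in mesenchymal, 123 and 246 CPM in endothelial and 78.8 and 390 CPM in parenchymal pools (3.05 ± 0.51, adjusted p = 0.0068). Lamc1, the gamma chain shared by most laminin trimers, stood at 203 and 222 CPM against 76.0 and 82.7 CPM in endothelial pools (3.85 ± 0.42, adjusted p = 0.00116). For these 3 genes the mesenchymal pools did not overlap the others.

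The nidogens split by class. Nid1 was at 628 and 268 CPM in mesenchymal and at 302 and 243 CPM in endothelial pools, which overlapped, and the log2 difference of the mesenchymal class from the other 3 was 4.19 ± 0.54 (adjusted p = 0.0021). Nid2 was at 199 and 238 CPM in mesenchymal pools and at 13.8 and 6.76 CPM in endothelial pools, and its log2 difference was 5.02 ± 0.67 (adjusted p = 0.00249). Endothelial cells thus held Nid1 with little Nid2.

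Npnt had 14.97 (male) and 141 (female) CPM in mesenchymal cells and at most 3.13 CPM elsewhere (9.02 ± 0.97, adjusted p = 0.0011). The pools differed in make-up, since the smooth muscle marker sum was 3291 CPM among male and 8341 CPM among female mesenchymal cells. Lama4 (33.4 and 73.0 CPM), Lama5 (67.1 and 157 CPM) and Hspg2 (280 and 86.0 CPM) overlapped the endothelial or parenchymal pools and were not called, with log2 differences of 0.67 ± 0.57, 1.87 ± 0.71 and 1.24 ± 0.59. Lama5 was called under 4 alternatives (adjusted p from 0.00123 to 0.0319), one of them without the female parenchymal pool (2.75, adjusted p = 0.0195).

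**Figure D1:**
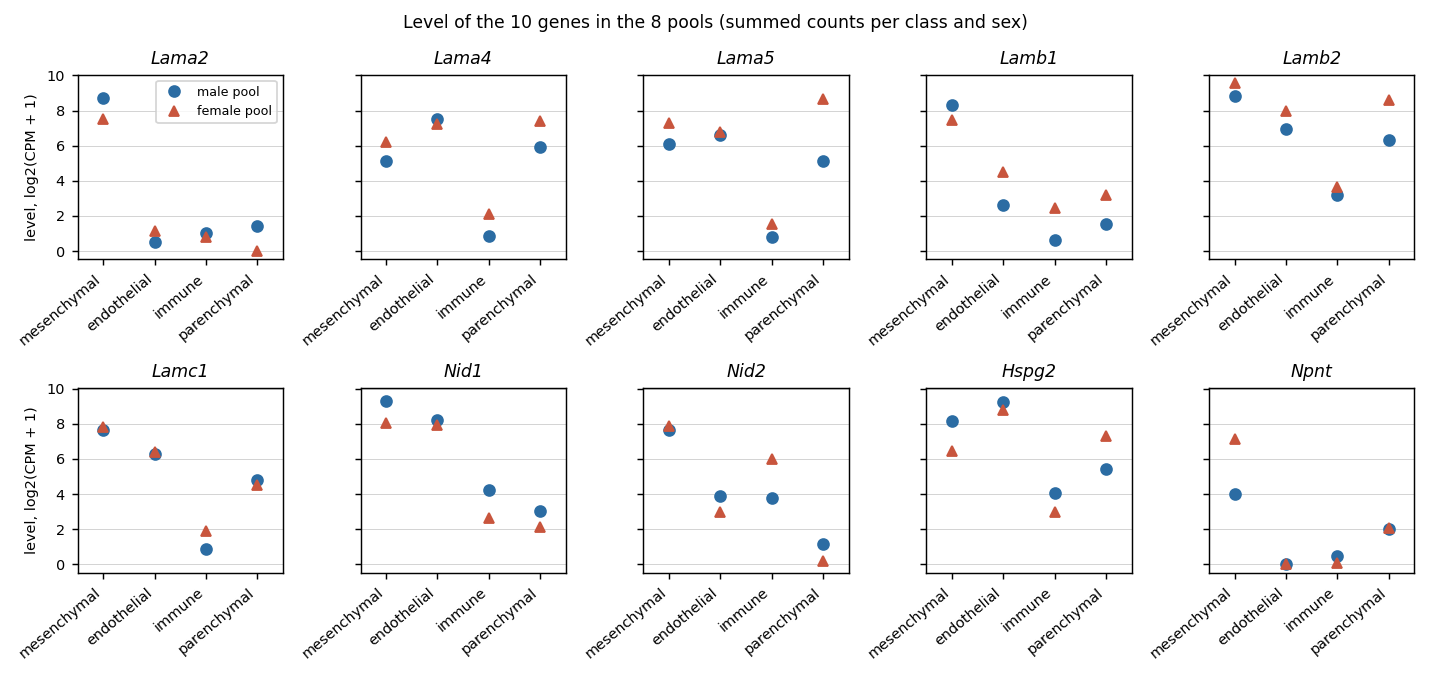
Level of each of the 10 genes, as log2(CPM + 1) on the vertical axis, in the male (circles) and female (triangles) pool of the 4 classes; each point is 1 pool. Lama2, Lamb1 and Nid2 sit highest in both mesenchymal pools, Hspg2 sits highest in both endothelial pools, and all but Nid2 sit low in immune cells.

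Endothelial cells held the highest perlecan level of the 4 classes, with Lama4 and Nid1 beside it. The genes called higher than in the other classes were Hspg2, Nid1, Lama4 and Lamc1 (4 of 10, with 5.33% of all genes called higher), and Npnt was called lower (2.96% of all genes called lower, 8.28% called in all). Hspg2, whose heparan sulfate chains bind growth factors, stood at 607 and 436 CPM, above each pool of the other classes (280 CPM at most), with a log2 difference of 3.05 ± 0.57 (adjusted p = 0.0168). Lama4, the alpha chain typical of vessel walls, stood at 181 and 151 CPM (2.77 ± 0.54, adjusted p = 0.0196), and the female parenchymal pool overlapped it at 170 CPM. Nid1 differed by 3.05 ± 0.53 (adjusted p = 0.0126) and Lamc1 by 1.83 ± 0.43 (adjusted p = 0.0372).

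Npnt had 1 count in all 1106 endothelial cells, so its fitted difference depends on the prior count and gives no bound. The comparison is against the mean of the logs of the other classes, in which immune cells near 0 weigh as much as mesenchymal cells, and both mesenchymal pools lay above both endothelial pools for Lamc1. For Nid1 the male mesenchymal pool (628 CPM) lay above both endothelial pools and the female one (268 CPM) between them. Lamc1 lost its call when any of 6 pools was left out (adjusted p from 0.0566 to 0.247) and with sums by plate (0.68, adjusted p = 0.572). Without the male endothelial pool edgeR called 0 of the 10 genes, 5 having an unadjusted p under 0.05, and without the female pool it called Nid1 alone, with log2 differences between 2.67 and 3.24 for Lama4, Nid1 and Hspg2. The 4 class comparisons were fitted on the same 8 pools and are not independent of each other.

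Immune cells held little of these transcripts, with 1 exception. Lama4, Lama5, Lamb2, Lamc1, Nid1 and Hspg2 were called lower than in the other classes (6 of 10, with 5.25% of all genes called lower and 7.92% higher). The log2 differences were -5.25 ± 0.65 for Lamc1 (adjusted p = 0.00177), -5.45 ± 0.84 for Lama4 (0.00482), -4.80 ± 0.77 for Lamb2 (0.00559) and -4.12 ± 0.83 for Hspg2 (0.0143), without overlap, and -2.81 ± 0.71 for Nid1 (0.0348), with overlap. Lama5 stood at 0.75 and 1.95 CPM in immune cells and at 34.3 CPM or more elsewhere (adjusted p = 0.00897). With the pool as a block Lamb1 was called lower too (-3.64, adjusted p = 0.0432), and likewise without the cells annotated Cont (-4.97, adjusted p = 0.0121). These 26 cells held endothelial markers at 3084 CPM beside immune markers at 7771 CPM. A fit without them was chosen after seeing the data. Without them Nid1 in immune cells went from 18.04 to 4.17 CPM (male) and from 5.33 to 1.21 CPM (female), and Hspg2 from 15.54 to 4.37 and from 7.04 to 1.504 CPM. Most of the Nid1 and Hspg2 counted in immune pools was thus in Cont cells. Leaving out single pools ended some of the 6 calls: that of Lama5 without the male immune pool (adjusted p = 0.0579), that of Hspg2 without the female immune pool (0.0744), and that of Nid1 without the female immune, the male endothelial or the male parenchymal pool (0.0598 to 0.128).

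Nid2 was the exception. Its immune level was 12.5 (male) and 61.7 (female) CPM. The female value was the highest outside mesenchymal cells, the male value lay between both endothelial values, and leaving out the Cont cells changed this little (12.7 and 62.9 CPM). In Kupffer cells, the resident macrophages of the liver, it reached 11.2 (male) and 61.5 (female) CPM, and 7.83% of 115 and 41.5% of 354 cells had a count. A single cell gave 75.5% of the 278 male counts, whereas the top cell gave 7.05% of the female ones. The 24 cells annotated Cyc held 134 CPM, of which 44.9% came from 1 cell, and monocytes, B cells and the cells annotated sKC held 7.17 CPM or less. The difference of the immune class from the others, 1.68 ± 0.67, was not called (adjusted p = 0.148) and came to -0.01 without the female immune pool.

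The Kupffer clusters differed in sex and plates: 98.2% of the 164 cells of #i7 came from 1 plate and 163 of them were female, whereas #i1 held 108 male and 9 female cells from 7 plates. Nid2 was at 62.5 CPM in the female cells of #i7, at 40.6 CPM in those of #i3, and at 81.5 CPM in those of #i6, against 0.162 CPM in the male cells of #i1. Of the 9 female cells of #i1, 4 had a count, at 22.9 CPM with 91.4% from 1 cell, against 4 of its 108 male cells. The 10 male cells of #i3 held 44.5 CPM, of which 96.7% came from 1 cell. Sex and plate cannot be told apart.

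Parenchymal cells divided sharply into cholangiocytes, the cells that line bile ducts, and hepatocytes. As a class they were called higher for Lama4 (59.2 and 170 CPM, 2.02 ± 0.55, adjusted p = 0.0484) and Lama5 (34.3 and 408 CPM, 3.01 ± 0.70, adjusted p = 0.0271), with 8.37% of all genes called higher. They were called lower for Nid1 (7.29 and 3.28 CPM, -4.43 ± 0.79, adjusted p = 0.00893) and Nid2 (1.26 and 0.156 CPM, -5.70 ± 1.04, adjusted p = 0.0101), with 4.05% of all genes called lower (12.4% called in all). For Lama4 and Lama5 the pools overlapped other classes. The male Lama4 value lay below both endothelial pools, and the male Lama5 value was the lowest outside immune cells. Immune cells near 0 weigh as much in this comparison as each other class. The female pool held 37 cholangiocytes and 2 hepatocytes and the male pool 157 and 201, and without the female pool Nid2 alone was called, with Lama5 at 0.52. Lama4 lost its call without any 1 of the mesenchymal, endothelial or parenchymal pools (adjusted p from 0.0587 to 0.374), and Lama5 without any 1 of 5 pools (0.0505 to 0.72). Over all genes this comparison had a median of -0.27, so the changes of Nid1 and Nid2 exceed the shift and those of Lama4 and Lama5 run against it.

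Cholangiocytes were set against hepatocytes directly. Lama4 stood at 96.0 (male) and 174 (female) CPM in cholangiocytes and at 1.48 CPM in male hepatocytes, a log2 difference of 5.61 ± 1.15 (adjusted p = 0.0272). Lama5, the alpha chain typical of epithelia, stood at 55.9 and 418 CPM against 0.363 CPM (8.41 ± 1.64, adjusted p = 0.0239), and Lamb2 at 121 and 400 CPM against 12.1 CPM (3.51 ± 0.88, adjusted p = 0.0491). These 3 of 10 genes were called higher and none lower, with 3.63% of 27328 genes called higher and 6.93% in all. Both cholangiocyte values lay above the single hepatocyte value for these 3 genes, whereas those of Lamb1 lay on either side of it.

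Cholangiocytes also held Lamc3 (233 CPM), a gamma chain outside the 10 genes, which was called higher than in hepatocytes (5.19 ± 1.29, adjusted p = 0.0484). Only male cells gave a hepatocyte sum of at least 5 cells, so the hepatocyte side rests on 1 pool, and the spread behind these p-values comes from the other groups of the fit, like which the lone hepatocyte sum is assumed to vary. Endothelial markers summed to 145 (female) and 22.6 (male) CPM in cholangiocytes and immune markers to 401 and 20.2 CPM, and their part in the higher female values was not tested. Without the female parenchymal pool, which leaves 1 sum on each side, Lama5 alone passed (6.45, adjusted p = 0.0343), with a spread taken wholly from the other classes. Lamb2 lost its call without any 1 of 7 pools (adjusted p from 0.057 to 0.0937).

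The make-up of the laminin alpha chains differed between cell types, expressed as the share of each chain in the summed alpha chain level per kilobase. In endothelial pools Lama4 held 72.7% and 68.2% and Lama5 20.8% and 25.8% (male and female). In mesenchymal pools Lama2 held 76.7% and 40.7%, and in parenchymal pools Lama4 held 71.6% and 44.0% and Lama5 22% and 56.0%. Lama4 thus led in the male and Lama5 in the female parenchymal pool, and the Lama4 share of endothelial pools varied least (70.4% ± 3.22, SD, n = 2). Lama1 and Lama3, the alpha chains outside the 10 genes, stayed at 6.33% or less in the mesenchymal, endothelial and parenchymal pools.

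Within the mesenchymal class the make-up turned over from type to type. Lama2 held 85.3% of the alpha chain level in portal fibroblasts, 80.5% in peribiliary fibroblasts (PeriBilFB), which lie around bile ducts, and 89.2% in the cells annotated SLC, a name for second-layer cells of the vein wall that the study assigned as an assumption. Smooth muscle cells of arteries (artSMC) had 81.3% Lama5, those of large veins (elaSMC) 73.9% Lama4, and those annotated venSMC 69.4% Lama2. The Wt1+ fibroblasts of the capsule held 50.4% Lama2 and 49.1% Lama4, but the pools went opposite ways, with 64.2% Lama2 and 35.5% Lama4 in male and 34.7% and 64.7% in female cells. Stellate cells (HSC), the vitamin A-storing pericytes of the sinusoids, joined Lama2 (48.1%) with Lama1 (36.0%), though in the 4 female cells Lama1 held 97.1%, and capsular stellate cells (cHSC) had 79.7% Lama2 and 17.8% Lama1.

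Among endothelial annotations Lama4 held 78.3% in portal vein, 78.1% in sinusoidal (Sinusoid_EC) and 96.9% in lymphatic cells (LEC). In central vein cells the pools went opposite ways, with 31.0% Lama4 and 58.2% Lama5 in male and 72.4% and 23.8% in female cells, and 1 cell gave 48.9% of the female Lama4 counts. Lama4 held 26.6% in the cells annotated lastSinusoid, beside 55.1% Lama5 and 17.8% Lama3. The beta chain divided in another way: Lamb1 held 84.3% of the beta chain level in HSC, 76.0% in cHSC and 84.5% in LEC, and Lamb2 held from 89.5% to 99.8% in the other endothelial annotations. These shares pool the cells of both sexes and describe transcripts, not assembled trimers.

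**Figure D2:**
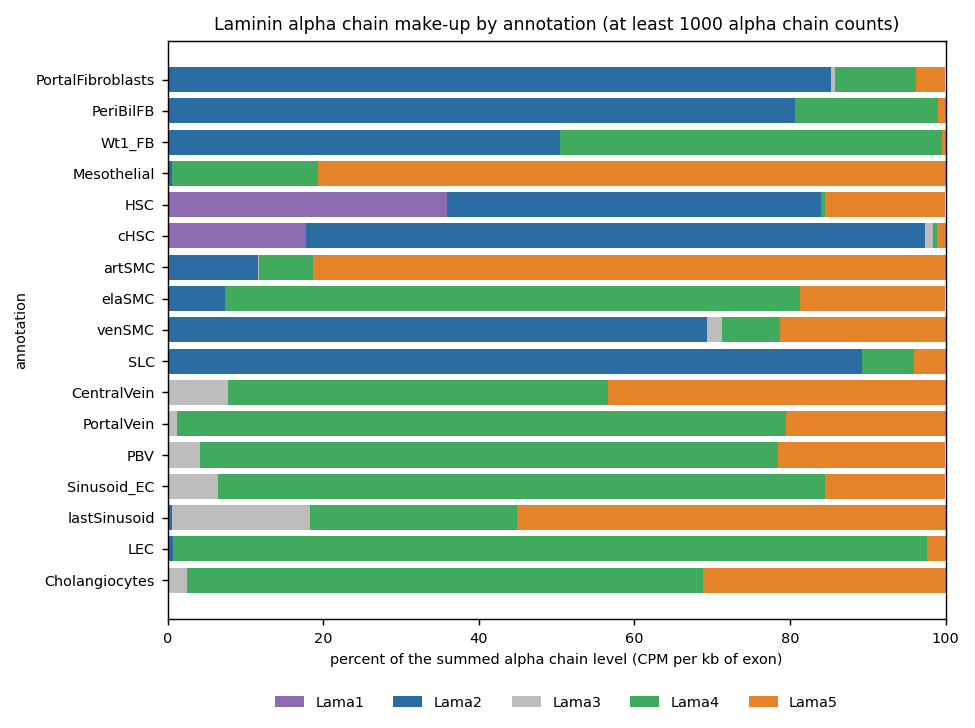
Share of each laminin alpha chain in the summed alpha chain level (percent of CPM per kilobase of exon, horizontal axis) in each annotation with at least 1000 alpha chain counts, both sexes together. Lama2 leads in most fibroblast and stellate types, Lama5 in arterial smooth muscle (81.3%) and Lama4 in elaSMC (73.9%) and most endothelial types.

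Across the 24 annotations each gene had its own order. Lama2 was highest in peribiliary fibroblasts (632 CPM male, 537 CPM female), followed by portal fibroblasts (532 and 281), venSMC (476 and 264) and SLC (414 and 237), whose ranges overlapped. It dropped to 43.8 and 49.5 CPM in artSMC and 85.2 and 22.6 CPM in elaSMC. Stellate cells lay between, at 310 and 128 CPM in cHSC and 217 CPM in male HSC.

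Lamb1 was highest in stellate cells, at 907 CPM in male HSC, 736 CPM in male cHSC and 503 CPM in female cHSC. Wt1+ fibroblasts (255 and 397 CPM), SLC (297.5 and 304 CPM), peribiliary fibroblasts (222 and 410 CPM) and portal fibroblasts (286 and 202 CPM) followed, with overlapping ranges. Outside LEC, it was at 44.1 CPM or less in every endothelial annotation by pool, and the 44.1 CPM of female central vein cells came to 94.0% from 1 cell. LEC stood apart among endothelial cells at 509 and 153 CPM, but 90.1% of the male counts came from 1 of 9 cells.

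Lamb2 was high in artSMC (524 and 1102 CPM), elaSMC (318 and 792 CPM) and venSMC (655 and 790 CPM), with overlapping pools. In male elaSMC cells it lay below the male mesenchymal pool as a whole. Among mesenchymal types it was lowest in HSC (159 CPM, male) and cHSC (197 and 164 CPM). Lamc1 was highest in venSMC (446 and 440 CPM) and next in Wt1+ fibroblasts (298 and 476 CPM), which overlapped. Lama5 was highest in the 6 mesothelial cells (652 CPM, with 47.7% from 1 cell) and in artSMC (320 and 436 CPM). The beta chain Lamb2 and Lama5 were thus both high in arterial smooth muscle.

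Nid1 was highest in peribiliary fibroblasts (1093 and 720 CPM), then in male HSC (877 CPM), Wt1+ fibroblasts (795 and 439 CPM) and portal fibroblasts (718 and 420 CPM), and was at 388 and 382 CPM in Sinusoid_EC. Nid2 was highest in Wt1+ fibroblasts (348 and 649 CPM) and portal fibroblasts (310 and 410 CPM), which overlapped. Hspg2 was highest in Sinusoid_EC (753 and 832 CPM), above lastSinusoid (563 and 372 CPM) and central vein cells (438 and 366 CPM). With both sexes together Lama4 was highest in LEC (90.5 and 467 CPM by pool), the 14 cells annotated PBV from vessels around bile ducts (247 and 374 CPM) and portal vein cells (310 and 338 CPM), whose ranges overlapped. The male LEC value lay below both pools of each Sinusoid_EC cluster (#e3, #e5, #e8).

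**Figure D3:**
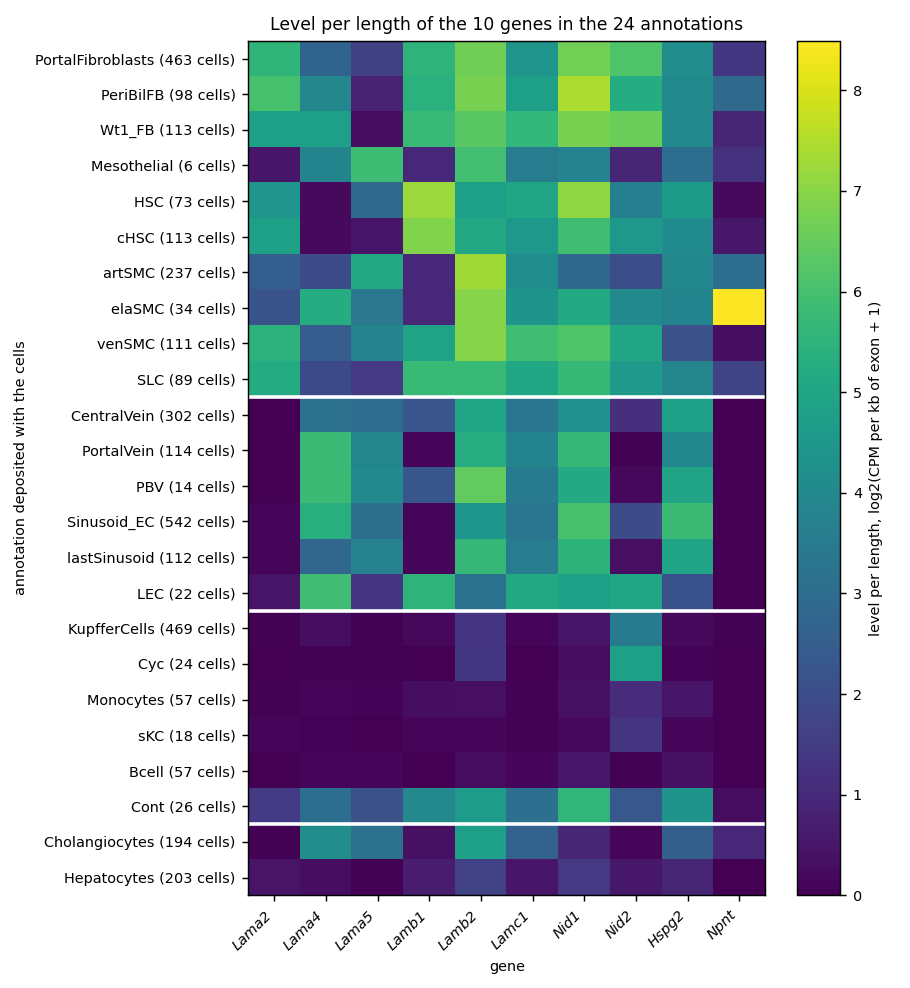
Level of the 10 genes (columns) in the 24 annotations deposited with the cells (rows, with the number of cells), as log2(CPM per kilobase of exon + 1) with both sexes together; white lines part mesenchymal, endothelial, immune and parenchymal annotations. Npnt stands out in elaSMC (359 CPM per kilobase), Lamb1 in HSC (148) and Nid1 in PeriBilFB (172), on the same scale.

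Mural cells and fibroblasts were compared within the mesenchymal class, over sums of multilevel clusters by pool. The clusters had been made by the authors from the same transcriptomes, so part of every difference between clusters is built in and the p-values are too small. Lama2, Lamb1, Nid1 and Nid2 were called lower in the mural clusters (#m2, #m5, #m6, #m7) than in the fibroblast clusters (#m1, #m4, #m8, #m9, #m10), and Lama5 was called higher. That is 4 of 10 lower and 1 higher, with 2.25% of 22365 genes called lower and 0.966% higher (3.21% in all).

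Lamb1 ranged from 133 to 410 CPM in fibroblast sums and from 1.14 to 280 CPM in mural sums (-3.41 ± 0.41, adjusted p = 6.01e-05). Nid2 ranged from 173 to 605 CPM and from 5.004 to 176 CPM (-2.56 ± 0.36, adjusted p = 0.000285), and Nid1 from 420 to 1093 CPM and from 29.4 to 476 CPM (-2.27 ± 0.37, adjusted p = 0.0011). Lama2 differed by -1.79 ± 0.34 (adjusted p = 0.00442). In all 4 the overlap came from sums of #m5, in which 88 of 122 cells were annotated SLC. For Lamb1 and Lama2 it also came from the male sum of #m7. In #m5c, 87 cells all annotated SLC, Nid1 (379 male and 173 female CPM) and Nid2 (109 and 125 CPM) lay below every fibroblast sum.

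Lama5 ranged from 4.28 to 48.9 CPM in fibroblast and from 23.9 to 436 CPM in mural sums (2.73 ± 0.55, adjusted p = 0.00721). Lamb2 (-0.00 ± 0.25) and Lamc1 (0.16 ± 0.25) had the smallest differences. Hspg2 was called lower with the pool as a block (-1.02, adjusted p = 0.0461) but not without it (-1.21 ± 0.52, adjusted p = 0.316). Sums by plate in place of sums by pool left 3 of the 10 genes called, without Lama5 and Nid2.

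Arterial smooth muscle (#m2) differed further from the other mural clusters. Lamb1, Nid1 and Nid2 were called lower (3 of 10, with 0.894% of genes called lower) and none of the 10 higher (1.10% of genes). Nid2 stood at 5.004 (male) and 21.1 (female) CPM in arterial cells against 33.9 to 176 CPM in the other mural sums, without overlap (-2.93 ± 0.67, adjusted p = 0.0265). Lamb1 stood at 2.76 and 7.14 CPM against 1.14 to 280 CPM (-3.35 ± 0.76, adjusted p = 0.0265), the low end being #m6. Nid1 stood at 29.4 and 43.3 CPM against 38.6 to 476 CPM (-2.76 ± 0.67, adjusted p = 0.0412), and with the pool as a block it was no longer called (adjusted p = 0.062).

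Lama5 stood at 320 and 436 CPM in arterial cells and at 23.9 to 199 CPM in the other mural sums, without overlap, but was not called (2.38 ± 0.71, adjusted p = 0.11). With the block Lama2 was called lower (-1.68, adjusted p = 0.0468) and Hspg2 higher (1.74, adjusted p = 0.0242). Of the chains outside the 10 genes, Lamc3 was called higher in arterial cells (3.18 ± 0.56, adjusted p = 0.00472). Among the receptors Bcam, which binds Lama5-containing laminins, was called higher (3.17 ± 0.41), and Itga7, the laminin receptor of muscle, was at 588 CPM there, above its 246 CPM in venSMC and 115 CPM in elaSMC.

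Stellate cells (#m3, which joins HSC and cHSC) were compared with the mural and fibroblast clusters together. Lamb1 was called higher (1 of 10, with 2.41% of genes called higher), at 807 and 483 CPM against 1.14 to 410 CPM, without overlap (2.77 ± 0.45, adjusted p = 0.00368). Lama4 and Lamb2 were called lower (2 of 10, with 0.291% of genes called lower and 2.70% in all). Lamb2 stood at 180 and 153 CPM against 295 to 1102 CPM, without overlap (-1.90 ± 0.43, adjusted p = 0.0254). Stellate cells were thus high in the beta chain that arterial cells lacked, and low in the one at which arterial cells were high.

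Lama4 stood at 0.605 and 2.64 CPM in stellate cells, the lowest of the mesenchymal clusters apart from the female cells of #m7 at 2.20 CPM (-4.87 ± 1.26, adjusted p = 0.0482), and was not called with the pool as a block (adjusted p = 0.0661). Lama1 was called higher (8.57 ± 1.14, adjusted p = 0.000805) and reached 146 CPM in HSC and 57.5 CPM in cHSC, against 1.35 CPM or less in the other mesenchymal annotations. The other 7 of the 10 genes had differences between -1.02 and 0.34.

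Capsular stellate cells (#m3c, 91 male and 22 female cells) and stellate cells of the parenchyma (#m7c) showed no call among the 10 genes, with 0.0234% of 21329 genes called in all. By edgeR 2 of the 10 had an unadjusted p under 0.05, and DESeq2 called 0. Lama5 was at 3.98 and 5.99 CPM in capsular cells and at 74.2 CPM in the male #m7c cells (adjusted p = 1), and Nid1 at 384 and 246 CPM against 893 CPM (-1.52 ± 0.85, adjusted p = 1). The 4 female #m7c cells were too few for a sum, so that side rests on 1 pool. Of male HSC, 14.5% had 20 or more Lama5 counts, against 1 of the 91 male cHSC.

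Peribiliary fibroblasts (#m4) showed no call against the other fibroblast clusters, with 0.0626% of genes called in all (0.0224% higher and 0.0402% lower). By edgeR 1 of the 10 had an unadjusted p under 0.05, and DESeq2 called 1, in both cases Npnt. Npnt had 15.6 CPM over 89 male and 160 CPM over 9 female peribiliary cells and at 0.0893 to 25.0 CPM in the other fibroblast sums (6.48 ± 1.52, adjusted p = 0.209). In the female cells 75.3% of the Npnt counts came from 1 cell. The other 9 genes differed by between -0.91 and 0.56.

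**Figure D4:**
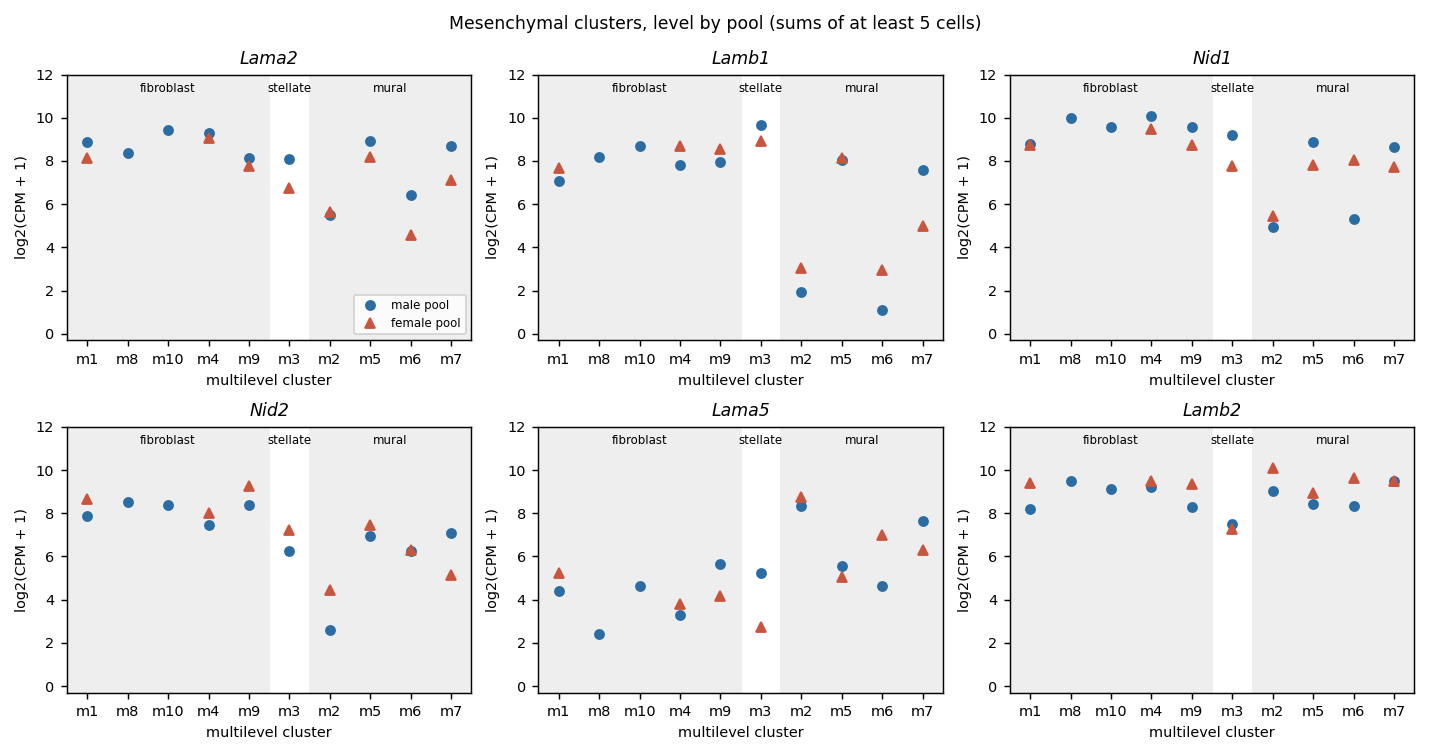
Level of 6 of the genes, as log2(CPM + 1) on the vertical axis, in the 10 multilevel clusters of mesenchymal cells (horizontal axis), for male (circles) and female (triangles) sums of at least 5 cells. Lamb1, Nid1 and Nid2 are low in the arterial cluster m2, where Lama5 is high, and Lamb1 is highest and Lamb2 lowest in the stellate cluster m3.

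Npnt was highest in large-vein smooth muscle. The study had singled it out for these cells (#m15c, 33 cells, 32 of them annotated elaSMC), so its level there is a description and was not tested. It stood at 985 CPM in the 7 male cells, 3 of which had a count (42.9%, exact 95% interval 9.90% to 81.6%), and at 1790 CPM in the 26 female cells, 24 of which had a count (92.3%, 74.9% to 99.1%). With a limit of 20 counts the female share was 84.6% and the male share the same. These cells gave 13416 of the 16057 Npnt counts of the female mesenchymal pool and 1610 of the 3269 of the male pool. Single cells ran from 0 to 4708 CPM in the male and from 0 to 4474 CPM in the female pool, with medians of 0 and 1726 CPM.

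Of the 33 cells of #m15c, 26 came from 1 plate, which held 1790 CPM, and the 2 other plates with Npnt gave 1320 and 1263 CPM from 3 and 2 cells. The cells matched their name by markers: smooth muscle markers (Acta2, Myh11, Tagln, Cnn1, Des) summed to 12660 and 17390 CPM, and endothelial markers to 9.18 and 8.01 CPM. The intervals cover counting of cells only. Npnt reached a level of 359 CPM per kilobase in elaSMC, beside 124 CPM per kilobase for Lamb2, the next of the 10 genes there.

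The rest of the male counts lay mostly in #m2c (994), #m4c (397) and #m5c (210), and single male cells of #m2c reached 1778 CPM. In the other mesenchymal clusters few cells had 20 or more counts of Npnt: 7.09% of male and 6.42% of female cells of the arterial cluster #m2c, 3.49% and 22.2% in peribiliary #m4c, 6.17% of the 81 female cells of portal fibroblast cluster #m18c (868 counts, 26.8 CPM) and 1.52% and 0% in #m5c (SLC). Male cells of #m3c, #m7c, #m12c and #m17c held no count at all; 0 of 91 cells in #m3c allows a share of up to 3.30%. Female cells had a count in 72.7% (#m3c) and 100% (#m7c) of cells, at 9.48 and 9.22 CPM, and in none with 20 counts. Those low female counts appeared in every cluster with female cells, and their cause was not tested.

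Itga8, the integrin chain through which cells bind nephronectin, was highest in cHSC (854 CPM), next in elaSMC itself (471 CPM) and in portal fibroblasts (320 CPM) and HSC (285 CPM). As a class, mesenchymal cells were called higher for Itga8 (3.77 ± 0.81, adjusted p = 0.0197).

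Endothelial clusters differed in level but gave no call. Sinusoidal clusters (#e3, #e5, #e6, #e8) were compared with venous clusters (#e1, #e2) in the 9 genes tested, and portal vein cells (#e2) with central vein cells (#e1) in the same 9, since Npnt was too low. Of the 128 cells of #e2, 114 were annotated as portal vein, and the 14 PBV cells were in its sums too. Cluster #e7, 150 of the 302 cells annotated as central vein, was on neither side. It held Lama4 at 15.8 (male) and 77.1 (female) CPM, with 94.9% of the female counts from 1 cell, Nid1 at 60.2 and 138 CPM and Hspg2 at 464 and 466 CPM. Counted as sinusoidal or as venous, it left 0 of the 9 genes called in the first comparison (edgeR, 1 and 3 with an unadjusted p under 0.05). In the first comparison 1.18% of 18321 genes were called (0.224% higher and 0.961% lower) and none of the 9; 1 had an unadjusted p under 0.05 by edgeR, and DESeq2 called 1. In the second 0.0764% of genes were called (0.0273% higher and 0.0491% lower) and none of the 9; 2 had an unadjusted p under 0.05, and DESeq2 called 0.

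Hspg2 ranged from 372 to 1930 CPM in sinusoidal and from 185 to 428 CPM in venous sums, a log2 difference of 1.23 ± 0.36 (adjusted p = 0.124). It was called with each cell thinned to 50000 counts, the shallower cells left out (1.31, adjusted p = 0.0291), with sums of at least 10 cells (1.26, adjusted p = 0.0384) and by DESeq2 (1.39, adjusted p = 0.0445). The highest level was in #e8, with 1930 CPM over 35 male and 977 CPM over 120 female cells. In Sinusoid_EC cells 86.0% of male and 86.6% of female cells had 20 or more Hspg2 counts.

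Lama4 was at 304 and 343 CPM in #e2 and at 42.4 and 53.3 CPM in the central vein cells of #e1, without overlap, and the difference of 2.72 ± 0.88 did not pass (adjusted p = 0.681). Nid1 was at 308 and 280 CPM against 129 and 107 CPM, also without overlap (1.29 ± 0.58, adjusted p = 0.824). Along the sinusoid Lama4 was high in #e3, #e5 and #e8 (143 to 556 CPM by pool) and low in #e6, annotated lastSinusoid (33.3 and 37.7 CPM). The low level of #e6 was near that of #e1.

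Lymphatic cells (#e4, 9 male and 13 female cells) held a distinct set as a description: Lamb1 at 509 and 153 CPM, Nid2 at 168 and 148 CPM and Lamc1 at 119 and 330 CPM, with Lama5 at 49.9 and 1.12 CPM and Hspg2 at 92.3 and 28.2 CPM. A few cells carried most counts, since 98.9% of the male and 90.0% of the female Nid2 counts came from 1 cell each. Lymphatic markers summed to 7236 (male) and 7267 (female) CPM in LEC. Mesenchymal markers summed to 2224 and 969 CPM there, with Pdgfrb at 0 in the female cells, and their part in Lamb1 and Nid2 was not tested.

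**Figure D5:**
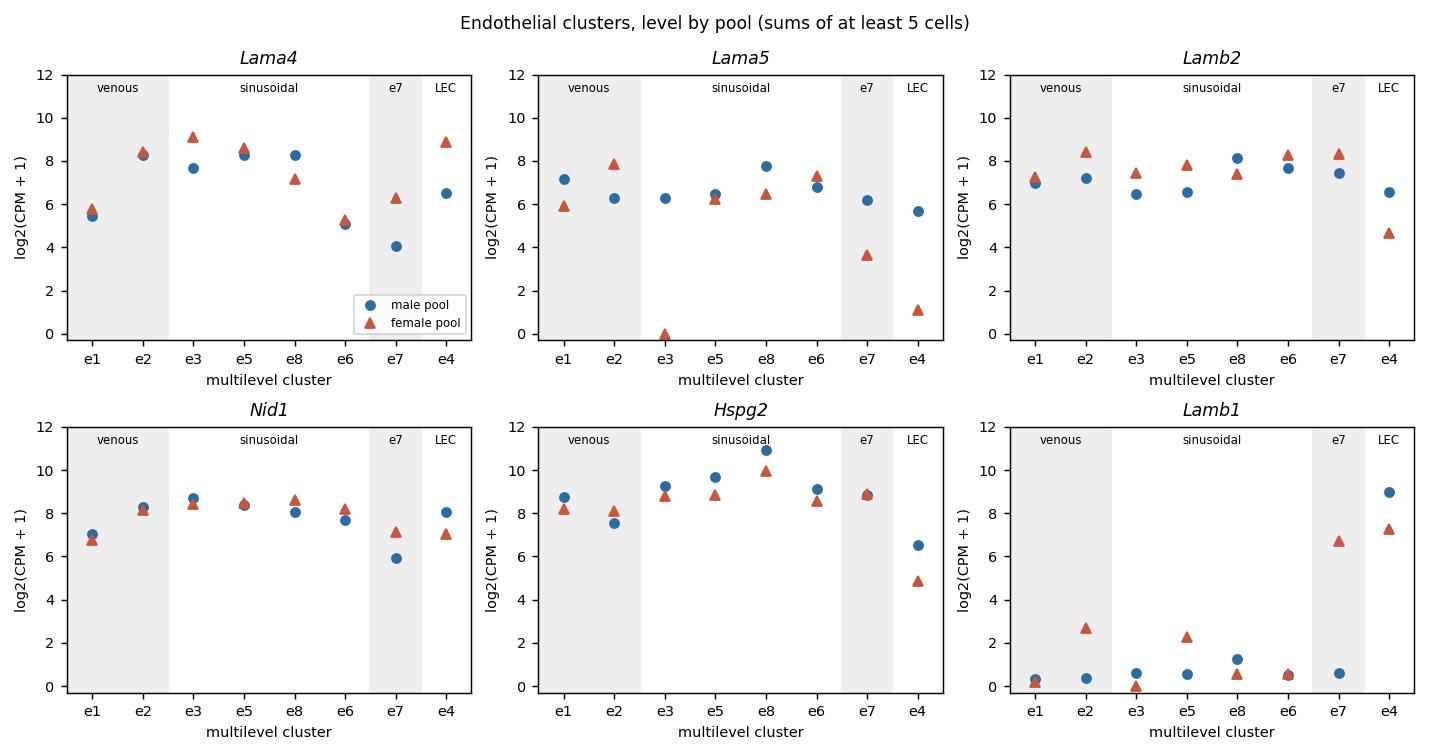
Level of 6 of the genes, as log2(CPM + 1) on the vertical axis, in the 8 multilevel clusters of endothelial cells (horizontal axis), for male (circles) and female (triangles) sums of at least 5 cells. Lama4 is low in e1, e6 and e7 in both pools, Hspg2 is highest in the male sum of e8 (1930 CPM), and Lamb1 is high in the lymphatic cluster e4. The female Lamb1 point of e7 (104 CPM) rests mostly on 1 cell.

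The other genes of the basement membrane were counted as lists. Of 20 other basement membrane genes, 14 were called higher in mesenchymal cells and none lower, among them Col15a1 (8.61 ± 0.68) and Fbln1 (8.20 ± 0.86); the list's median was 3.61 against 0.02 over all genes. Over all genes 9.47% were called higher and 2.33% lower there. In endothelial cells 5 were called higher, among them Col4a1 (2.23 ± 0.44), and 4 lower, with 5.33% and 2.96% of all genes. In immune cells 9 were called lower and none higher (5.25% and 7.92% of all genes), and in parenchymal cells 7 higher and 1 lower (8.37% and 4.05%). Among the other laminin chains, Lama1 (7.89 ± 1.31) and Lamc3 (6.43 ± 0.69) were called higher in mesenchymal cells. Lamc3 was also called higher in parenchymal cells (6.76 ± 0.69) and lower in endothelial cells (-7.13 ± 1.10), and Lama3 was called higher in endothelial cells (4.11 ± 0.90).

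Of 9 receptors, 4 were called higher and 1 lower in mesenchymal cells, beside 9.47% and 2.33% of all genes. The 4 included Itga7 (9.95 ± 0.95) and Mcam (3.72 ± 0.55), and the lower one was Itga6 (-2.55 ± 0.52). In endothelial cells Itga6, Bcam and Mcam were called higher and Itga7 lower (5.33% and 2.96% of all genes). In sinusoidal clusters 2 of the 8 receptors tested were called lower than in venous ones, among them Bcam (-2.92 ± 0.41, adjusted p = 0.00155), beside 0.961% of all genes. In mural clusters Itga7, Bcam and Mcam were called higher than in fibroblasts, beside 0.966% of all genes.

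The levels of the 10 genes were compared with each other over 50 sums of multilevel clusters and pools, as a description, since sums of a pool share plates and depth. Lamb2 and Lamc1 moved most alike (Pearson's r = 0.85 on log2(CPM + 1)), then Lama2 and Lamb1 (0.81) and Lamc1 and Nid1 (0.80). Nid2 and Lama5 (-0.07) and Nid2 and Hspg2 (-0.06) were the least alike. Among the alpha chains r was 0.03 for Lama2 and Lama4, 0.19 for Lama2 and Lama5 and 0.56 for Lama4 and Lama5.

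Among 11454 genes with a mean of at least 10 CPM over these sums, the closest to Lama2 was Col5a1, a fibrillar collagen chain (r = 0.955), and the closest to Lama5 was Bcam (0.849). The closest to Lamb1 was Fam180a (0.919), to Lamb2 Tgfb1i1 (0.929), to Lamc1 Sgce (0.952), to Nid1 Ppic (0.939), to Nid2 Plxdc2 (0.847), to Hspg2 Tspan7 (0.827) and to Lama4 S100a16 (0.782). The 3 closest to Npnt were Cnn1, the smooth muscle protein calponin (0.816), Tcap (0.808) and Pnck (0.807). Lama4 had the weakest best match of the 10 genes.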

How the data were processed

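The values are raw read counts per gene and cell, deposited by the authors as 1 table of 3491 cells together with their class, annotation and cluster names. The submitters' processing notes name bcl2fastq, Bowtie, Bowtie2, featureCounts, Subread and Seurat and the builds GRCm38 and mm10, with no versions. Before deposit the authors removed cells by low counts or genes, mitochondrial share, spike-in share and an upper limit on genes against doublets, and no doublet caller was run here. The 92 ERCC spike-ins were left out.

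Counts were summed over the cells of each class, annotation or cluster within a pool (1 sex of 1 class), with at least 5 cells per sum, and compared with edgeR 4.0.16 (R 4.3.3, limma 3.58.1): TMM, filterByExpr, quasi-likelihood test and Benjamini-Hochberg adjustment over all genes of each comparison. Each fit held all sums of its level. SE is the log2 difference divided by the root of F. The scripts were tested on simulated data. Tables were made with Python 3.11.15, numpy 2.4.6, pandas 2.3.3, scipy 1.17.1 and matplotlib 3.10.9. The labels name no mice per cell, so p-values measure the spread between the male and female pools of a class or cluster, which may be technical. Shares have exact (Clopper-Pearson) 95% intervals, and a share of 0 allows up to 3 counts, both covering counting error only, since reads without molecular identifiers are not independent molecules.

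Members and lists were chosen with earlier results of these data known. All 10 genes are named, other chains, basement membrane genes and receptors were counted as lists with a few values each, and likeness names the closest gene. Some results of the list of other laminin chains are not reported here. Alternatives were DESeq2 1.42.0, no filter, pool as a block, cells thinned to 50000 counts, sums by plate, other minimum cell numbers and each pool left out. The pool marks sex and shared plates; deviations of same-sex sums from their group means correlated by 0.128 to 0.208 over 6 pairs of classes, 0.0448 to 0.241 over 28 pairs of mesenchymal clusters and -0.0168 to 0.121 over 28 pairs of endothelial clusters.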

Additional observations from a re-analysis of the deposited data

Results flagged for a closer look

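Lamb1 moved in opposite directions between the sexes in sinusoidal against venous endothelial clusters, with a log2 difference of 1.06 in the male and -1.62 in the female pool, a gap of 2.68 that was not tested. Its levels there were at most 5.52 CPM in any sum, and 97 of the 105 counts of that highest sum, the female cells of #e2, came from 3 PBV cells. Lamc1 did the same in portal against central vein cells, with -1.08 in the male and 1.01 in the female pool, a gap of -2.08 that was not tested either. In the male cells of #e2, 334 of its 790 counts came from 1 PBV cell.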

How the results depend on the processing

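Of the values of the 10 genes followed through the alternatives, 627 kept direction and side of the threshold, 58 passed it newly, 49 no longer passed, 7 without a test moved by more than the spread and 5 turned direction. The turned ones were Lama2 without the male parenchymal pool, at 0.20 in the endothelial (-4.07 at the other end of leaving out pools) and 0.58 in the immune comparison (-3.03 at the other end), Nid2 in the immune comparison without the female immune pool (-0.01, with 2.54 at the other end), and Npnt in capsular against other stellate cells, at -0.15 with sums of at least 3 cells and 0.00 without the female pool. The number of the 10 genes called came to 0 and 1 without either endothelial pool in the endothelial comparison. In the parenchymal comparison it was 7 with no filter, 2 with thinned cells, 2 with sums by plate and from 1 to 2 where leaving out a pool moved it. For cholangiocytes it was 8 with no filter, 7 by DESeq2 and 1 without the female parenchymal pool. It was 1 in the sinusoidal comparison with thinned cells, with at least 10 cells per sum and by DESeq2, and 1 in the peribiliary comparison with no filter, thinned cells and DESeq2. It was 3 in the mural comparison with sums by plate, and 6 in the arterial comparison with no filter and by DESeq2. Shares of all genes called under these alternatives are not given, so these counts describe the settings and not the 10 genes. Without division by length the mean Lama4 share of endothelial alpha chains was 56.2%. The causes were not tested. The pool as a replicate block ended 2 calls and added 4: Lamb1 in immune cells (-3.64), Hspg2 in mural clusters (-1.02), Lama2 (-1.68) and Hspg2 (1.74) in arterial cells, with Lama4 in stellate cells (-5.12) and Nid1 in arterial cells (-2.74) lost, and changed no other call. In the comparisons of clusters within a class, leaving out a pool leaves 1 sum per cluster and no residual degrees of freedom, which gives a value with no test. Each class had 2 pools, and the smallest, female parenchymal, held 39 cells, which limits the precision of its values.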
